A study of Mus musculus with 6 samples.

Results

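The heat-inducible chaperones and their co-chaperone Bag3 were followed as 10 genes: Hspa1a, Hspa1b, Hsph1, Dnajb1, Hsp90aa1, Hsp90ab1, Hspa8, Bag3, Chordc1 and Hspa4l. They were taken by name as known targets of heat shock factors, and all 10 were found among the 44792 rows of the count table and passed the filter on low counts, which kept 14370 genes. RNA of whole hearts was sequenced from 3 mice carrying a cTnI R193H mutation and from 3 wild type mice. All were of the C57BL/6 strain, 3 months old and untreated, and each heart gave 1 library. cTnI is cardiac troponin I, which holds heart muscle relaxed between beats. Whether the mutation was carried on 1 or both alleles, and how it was introduced, is not given in the sources used here. Since a whole heart was sampled, a lower value of a gene cannot be told apart from fewer cells that express it.

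Chaperones bind unfolded proteins and help them fold or be degraded. In cells with a surplus of unfolded protein, heat shock factor 1 (Hsf1) is released, forms trimers and binds heat shock elements, which are repeats of the letters GAA in alternating orientation, upstream of these genes. The Hsp70 proteins (Hspa1a, Hspa1b, Hspa8) hold client proteins through cycles of ATP hydrolysis. Their partners of the Hsp40 class (Dnajb1) start the cycle, and those of the Hsp110 class (Hsph1, Hspa4l) exchange the nucleotide. Hsp90 proteins (Hsp90aa1, Hsp90ab1), with helpers such as Chordc1, mature kinases and receptors, and in muscle they also serve the folding of myosin. Bag3 links Hsp70 to small heat shock proteins and to autophagy at the Z-disc of heart muscle.

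Heat shock element letters were read from the promoter windows of RefSeq (GRCm38.p6, 250 bases before to 50 after an annotated start), which held 7 of the 10 genes, and not Hsp90aa1, Hsp90ab1 or Hspa8. The motifs searched were a pair of units, GAANNTTC or TTCNNGAA, and a run of 3 units, GAANNTTCNNGAA or TTCNNGAANNTTC. The pair motifs read the same on both strands, and the runs, which are each other's reverse complement, contain overlapping pairs. A pair was present in windows of 17.0% of the 27025 genes with a window, and a run of 3 in 0.662%. Hspa1a and Hspa1b had 1 pair each, at the same distance from the start. Chordc1 had 4 overlapping pairs that form 3 overlapping runs, the first across its start and the others just after it, and 1 further pair. Hsph1 had 3 pairs and 1 run from either of its annotated starts, and Bag3 had 1 pair. Dnajb1 and Hspa4l had none of these letters in their windows. With 7 of 10 genes in the table, a comparison of shares over the set is void. The stretches that hold the letters are shown 5′ to 3′ on the strand of the gene, because repeats of this form are the known binding letters of heat shock factors, with the pairs in capitals.
Hspa1a, chr17:34972157-34972276, minus strand: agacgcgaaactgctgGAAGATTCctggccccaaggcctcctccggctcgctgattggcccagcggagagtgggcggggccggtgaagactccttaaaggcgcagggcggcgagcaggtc
Hspa1b, chr17:34959239-34959358, minus strand: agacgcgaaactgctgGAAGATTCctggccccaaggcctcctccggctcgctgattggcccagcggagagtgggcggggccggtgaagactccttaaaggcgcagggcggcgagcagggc
Hsph1, upstream pair, chr5:149636357-149636386, minus strand: tccattgggtagaatctTTCTCGAAggctc
Hsph1, run of 3 units after the start, chr5:149636287-149636306, minus strand: tgcagaTTCTGGAAAGTTCt
Chordc1, across the start, chr9:18292258-18292287, plus strand: aaccgGAACGTTCGGGAAAATTCCTGAAgc
Bag3, after the start, chr7:128523607-128523632, plus strand: gttctctggatgggaccaGAAGTTTC
The stretches of Hspa1a and Hspa1b differ in 1 of 120 bases, and their windows share 98.8% of the 250 bases before the start. A match of letters is a description and not evidence of binding in these hearts.

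**Figure D1:**
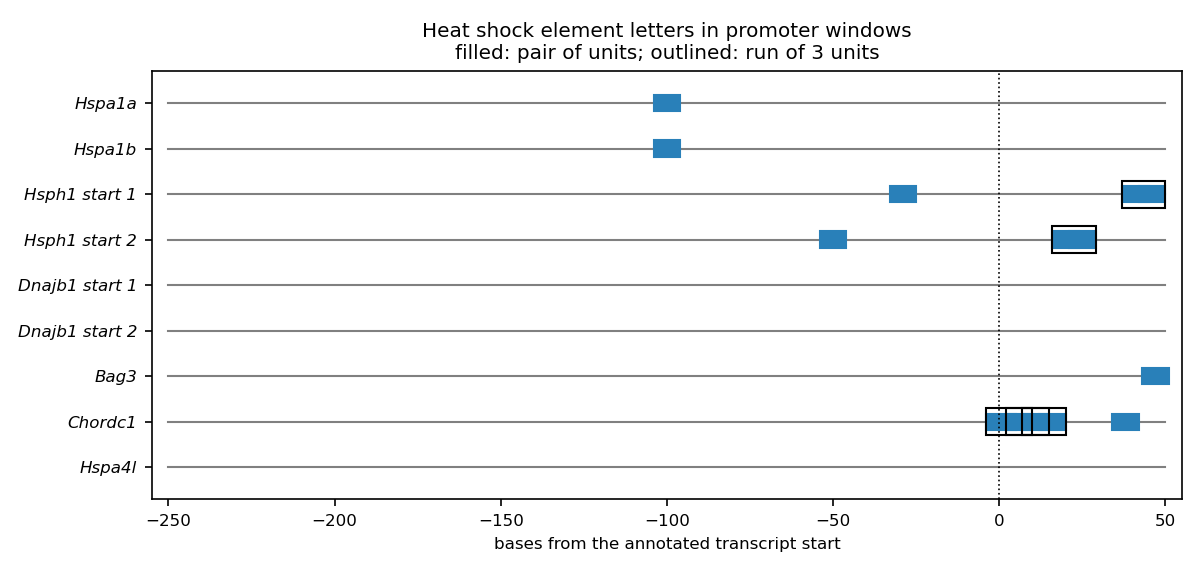
Positions of heat shock element letters (filled boxes, pairs of units; outlined boxes, runs of 3 units) in the promoter windows of 7 genes, with the distance from the annotated transcript start in bases on the x axis. Hspa1a and Hspa1b have 1 pair each at the same place, and the first run of Chordc1 lies across its start, with the others just after it.

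The libraries held 19582600 to 21852210 counts in R193H hearts and 14736067 to 20652534 counts in wild type hearts. Values are given as CPM, counts per 1000000 after TMM (trimmed mean of M values) adjustment of the totals. A count of 0 would allow up to 0.137 to 0.204 counts per 1000000 of the unadjusted totals (3 counts), for counting error only. Tnni3, the gene that carries the substitution, was read in every heart, at 3748 ± 135 CPM in R193H hearts and 3317 ± 136 CPM in wild type hearts (SD, n = 3 each). Counts per gene do not show the substituted base. R193H replicate 2 stood apart in the share of mitochondrially encoded counts, which was 30.9% in it, 35.2% and 35.4% in the other R193H hearts and 36.7% to 36.8% in wild type hearts. Values without it are given below for the genes whose difference it moved most. Wild type replicate 1, the smallest library, had 1.17% of its counts in the ribosomal RNA row Rn18s-rs5, against 0.085% to 0.187% in the other hearts.

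The question addressed is which of these genes differ between hearts of mutant and wild type mice. All 10 averaged lower in R193H hearts (against 50.1% of all genes), with 1 exception between scalings: Hspa4l stood at a log2 fold change of 0.041 when libraries were scaled by their totals. The 2 inducible Hsp70 genes were lowest relative to wild type, at 0.51 and 0.52 of the wild type mean, and Hspa4l was closest to it, at 0.95. The adjusted p of the 10 lay between 0.722 and 0.936 in edgeR. None of the 10 passed the threshold of 0.05 for the adjusted p of edgeR's quasi-likelihood test (0.00696% of all genes tested did, that is 1 gene), nor did any in DESeq2 (0.292% of all genes did) or limma-voom (0.00696% did). In edgeR 4 of the 10, Bag3, Hspa1b, Hspa1a and Hsp90ab1, had an unadjusted p under 0.05 and a lower mean (2.51% of all genes were lower with such a p, and 5.73% had one in either direction). DESeq2 and limma-voom each gave an unadjusted p under 0.05 to 4 of the 10 (4.79% and 5.76% of all genes). Each of these counts of 4 includes both Hspa1a and Hspa1b. Their near-identical sequences may share reads, so the 2 may not be separate observations. In 3 of the 10, Hspa1a, Hsp90ab1 and Bag3, every R193H heart lay below every wild type heart, which held for 5.8% of all genes tested.

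Hspa1a and Hspa1b encode the stress-inducible Hsp70 and are each a single exon on chromosome 17 (GENCODE M21 on GRCm38, minus strand, 34969190 to 34972156 and 34956436 to 34959238). Their open reading frames share 99.4% of bases, so the division of reads between them depends on how the authors' counting treated reads that map to both. Hspa1a also lies opposite the annotated gene Gm20481, and whether the counting used strand is not given in the sources used here, so its value is uncertain for that reason as well.
Hspa1a had 46, 42 and 102 counts in R193H replicates 1, 2 and 3, against 80, 94 and 115 counts in wild type replicates 1, 2 and 3. Scaled to depth, these were 2.07, 1.92 and 4.75 CPM in the R193H hearts, against 5.68, 5.70 and 5.76 CPM in the wild type hearts. The wild type hearts were almost level with each other, while R193H replicates 1 and 2 lay far below them and R193H replicate 3 lay just below. At 80 to 115 counts a heart, counting error alone is wider than the gaps among the wild type hearts. Their closeness is therefore not read as a trait, and their SD understates the uncertainty. The means were 2.91 ± 1.59 CPM in R193H hearts and 5.71 ± 0.0435 CPM in wild type hearts (SD, n = 3 each), a log2 fold change of -0.97 (SE 0.32, edgeR adjusted p = 0.735).
Hspa1b measured 2.29, 2.70 and 4.94 CPM in R193H hearts, against 6.74, 4.85 and 7.56 CPM in wild type hearts. Here R193H replicate 3 overlapped with wild type replicate 2, and the log2 fold change was -0.95 (SE 0.30, edgeR adjusted p = 0.722). Summed into 1 value, which does not depend on how reads were divided between the 2 copies but would miss reads dropped for matching both, the pair had 4.36, 4.62 and 9.69 CPM in R193H hearts, against 12.4, 10.5 and 13.3 CPM in wild type hearts. Every R193H heart was below every wild type heart in the sum, whose log2 fold change was -0.96 (SE 0.31, edgeR adjusted p = 0.737). Hspa1a made up 41.6% to 54.0% of the sum across the 6 hearts.
Without R193H replicate 3, the heart with the highest values of its group, Hspa1a passed the threshold (log2 fold change -1.51, edgeR adjusted p = 0.0277, with 0.143% of genes called in that fit). Over its 14 alternatives, the adjusted p of Hspa1a ranged from 0.0277 to 0.998 and its log2 fold change with 1 heart left out from -1.51 to -0.74. The log2 fold change without R193H replicate 2 was -0.74 for Hspa1a and -0.82 for Hspa1b.

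Hspa8, the constitutive Hsp70, which also rises with heat, had 606, 447 and 811 CPM in R193H hearts, against 659.6, 718 and 848 CPM in wild type hearts. R193H replicate 2 was lowest, and R193H replicate 3 lay above wild type replicates 1 and 2. Its log2 fold change was -0.26 (SE 0.21, edgeR adjusted p = 0.902), and it was -0.066 without R193H replicate 2, -0.49 without R193H replicate 3, -0.15 without wild type replicate 3, and -0.14 with libraries scaled by their totals. The 3 small nucleolar RNA genes Snord14c, Snord14d and Snord14e lie within the span of Hspa8 on the same strand.
Hsp90ab1, the constitutive Hsp90 and the most abundant of the 10, had 1133, 1152 and 1348 CPM in R193H hearts, against 1370.3, 1436 and 1466 CPM in wild type hearts. The groups did not overlap, with a narrow gap between R193H replicate 3 and wild type replicate 1, and the log2 fold change of -0.23 had the smallest SE of the 10 (0.092, edgeR adjusted p = 0.803). Under library totals it was -0.11, and its unadjusted p in edgeR was 0.214, against 0.0301 with TMM.
Hsp90aa1, the inducible Hsp90, had 109, 80.8 and 152 CPM in R193H hearts, against 118, 115 and 163 CPM in wild type hearts. The groups overlapped, since R193H replicate 3 lay above 2 wild type hearts, and the log2 fold change was -0.21 (SE 0.26, edgeR adjusted p = 0.929). It was -0.018 without R193H replicate 2, -0.47 without R193H replicate 3, -0.034 without wild type replicate 3, and -0.10 with libraries scaled by their totals. The reading frames of Hsp90aa1 and Hsp90ab1 share 75.7% of bases, and those of Hspa1a and Hspa8 share 74.1%.

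Dnajb1, the Hsp40 partner of the inducible Hsp70, had 20.5, 15.8 and 27.0 CPM in R193H hearts, against 23.3, 28.7 and 24.3 CPM in wild type hearts. Of the R193H hearts, replicates 1 and 2 lay below all wild type hearts and replicate 3 did not. Its log2 fold change of -0.27 (SE 0.18) was -0.099 without R193H replicate 2, -0.48 without R193H replicate 3, -0.18 without wild type replicate 2, and -0.16 with libraries scaled by their totals.
Hsph1, an Hsp110 nucleotide exchange factor, had 62.2, 42.6 and 70.1 CPM in R193H hearts, against 60.5, 61.5 and 84.1 CPM in wild type hearts. Only R193H replicate 2 lay below all wild type hearts. The log2 fold change was -0.24 (SE 0.21, edgeR adjusted p = 0.908). It was -0.056 without R193H replicate 2, -0.39 without R193H replicate 3, -0.067 without wild type replicate 3, and -0.13 with libraries scaled by their totals.
Hspa4l, the other Hsp110 protein of the set, had 49.1, 40.9 and 54.2 CPM in R193H hearts, against 52.4, 47.9 and 51.9 CPM in wild type hearts. It was the member with the smallest difference (log2 fold change -0.079, SE 0.11, edgeR adjusted p = 0.936) and the 1 member whose highest heart was an R193H heart. Its sign turned without R193H replicate 2 (0.026) as well as under scaling by library totals, and it was -0.17 without R193H replicate 3 and -0.12 without wild type replicate 2.
Chordc1, a zinc-binding helper of Hsp90, had 5.26, 4.71 and 7.22 CPM in R193H hearts, against 6.17, 6.61 and 7.86 CPM in wild type hearts. Again R193H replicate 3 lay within the wild type range and the other R193H hearts below it (log2 fold change -0.27, SE 0.19). The difference was -0.14 without R193H replicate 2, -0.46 without R193H replicate 3, -0.16 without wild type replicate 3, and -0.15 with libraries scaled by their totals. Its raw counts were 103 to 155 in R193H hearts and 87 to 157 in wild type hearts, so counting error weighs more here than in the abundant members.

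Bag3 had 199.9, 185 and 227 CPM in R193H hearts, against 232, 273 and 258 CPM in wild type hearts. The groups did not overlap, and R193H replicate 3 and wild type replicate 1 lay closest together. The means of 204 ± 21.4 CPM in R193H hearts and 254 ± 20.8 CPM in wild type hearts (SD, n = 3 each) gave a log2 fold change of -0.32 (SE 0.10). Its unadjusted p of 0.0106 in edgeR was the smallest of the 10 (adjusted p = 0.722). With 1 heart left out its log2 fold change stayed between -0.39 and -0.25, and it was -0.20 under scaling by library totals, with an unadjusted p of 0.0506 in edgeR. Bag3 was the 1 member whose range among the R193H hearts was smaller than its log2 fold change.

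**Figure D2:**
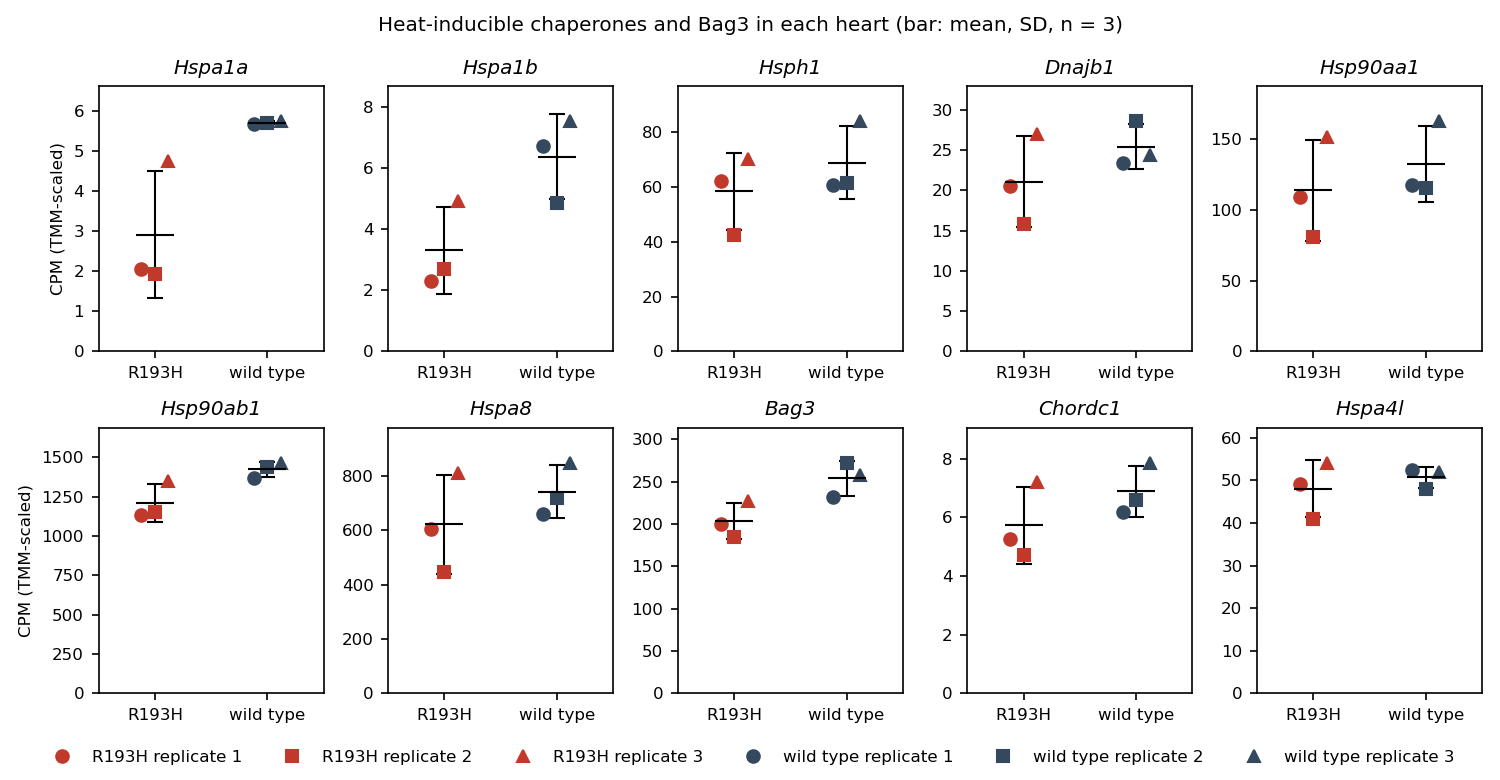
CPM of each gene in each heart, R193H left and wild type right, with symbols for the replicates and bars for the mean and SD of 3 hearts; every y axis starts at 0. R193H replicate 3 (triangle) is the highest R193H heart in all 10 panels, and the groups do not overlap in Hspa1a, Hsp90ab1 and Bag3.

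Levels were compared between genes as CPM per kilobase of annotated exon. Hsp90ab1 led with 404 ± 39.7 in R193H hearts and 475 ± 16.4 in wild type hearts, followed by Hspa8 (144 ± 42.4 in R193H and 173 ± 22.5 in wild type) and Bag3 (79.6 ± 8.34 in R193H and 99.2 ± 8.10 in wild type; SD, n = 3 each). Hsp90aa1 came next, with 29.0 ± 9.07 in R193H hearts and 33.6 ± 6.81 in wild type hearts. Hsph1, at 8.02 ± 1.95 in R193H hearts and 9.46 ± 1.83 in wild type hearts, and Dnajb1, at 6.58 ± 1.75 in R193H hearts and 7.94 ± 0.883 in wild type hearts, overlapped within their spread between hearts. The 2 genes were not compared heart by heart. Hspa4l had 4.08 ± 0.567 in R193H hearts and 4.30 ± 0.208 in wild type hearts. Hspa1b (1.18 ± 0.508 in R193H and 2.28 ± 0.497 in wild type), Hspa1a (0.982 ± 0.537 in R193H and 1.92 ± 0.0147 in wild type) and Chordc1 (0.764 ± 0.176 in R193H and 0.918 ± 0.117 in wild type) were the lowest. In R193H hearts these last 3 overlapped within their spread, while in wild type hearts Chordc1 lay below the other 2. The wild type SD of Hspa1a is smaller than its counting error. If reads that match both Hspa1a and Hspa1b were dropped in counting, which is not stated, the levels of both are understated, so their place below Hspa8 is uncertain. Exon lengths are the union over annotated transcripts and can understate the level of Hspa4l, Chordc1 and Hsph1, whose union spans 7266 to 11792 bases.

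The 10 genes ordered the hearts alike in part, mainly in the places of R193H replicates 2 and 3. The median over the 10 genes of the log2 difference from the wild type mean was -0.32, -0.68 and 0.060 in R193H replicates 1, 2 and 3, and -0.12, -0.045 and 0.12 in wild type replicates 1, 2 and 3. The same median over all genes tested was within 0.0043 of 0 in every heart. R193H replicate 2 lay below every wild type heart in 10 of 10 members (30.5% of all genes tested), R193H replicate 1 in 8 (25.1% of all genes tested) and R193H replicate 3 in 3 (23.7% of all genes tested, close to the members' share). Replicate 2 was the lowest of the 6 hearts in 8 of 10 members, against 23.9% of all genes tested, and R193H replicate 1 was the lowest for Hspa1b and Hsp90ab1. R193H replicate 3 was the highest of its group in 10 of 10 members (34.5% of all genes tested). Wild type replicate 3 was the highest of all hearts in 7 members (15.3% of all genes tested).
R193H replicate 3 had 2.47 times the CPM of R193H replicate 2 for Hspa1a, 1.88 times for Hsp90aa1 and 1.81 times for Hspa8, against 1.23 times for Bag3 and 1.17 times for Hsp90ab1. In all 10 members the SD of log2 CPM was larger in R193H hearts than in wild type hearts, as it was in 53.6% of all genes tested. The range among R193H hearts exceeded the log2 fold change in 9 of 10 members, close to the 84.4% of all genes tested, and the range among wild type hearts did so in 6 of 10 members and 81.9% of all genes tested. The median log2 fold change over the members was -0.26, against -0.00036 over all genes tested, and it was -0.12 without R193H replicate 2, -0.46 without R193H replicate 3 and -0.15 under library totals, where the median over all genes tested was 0.13. These medians describe the members and carry no test, since the genes were chosen with earlier results of these hearts known.

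**Figure D3:**
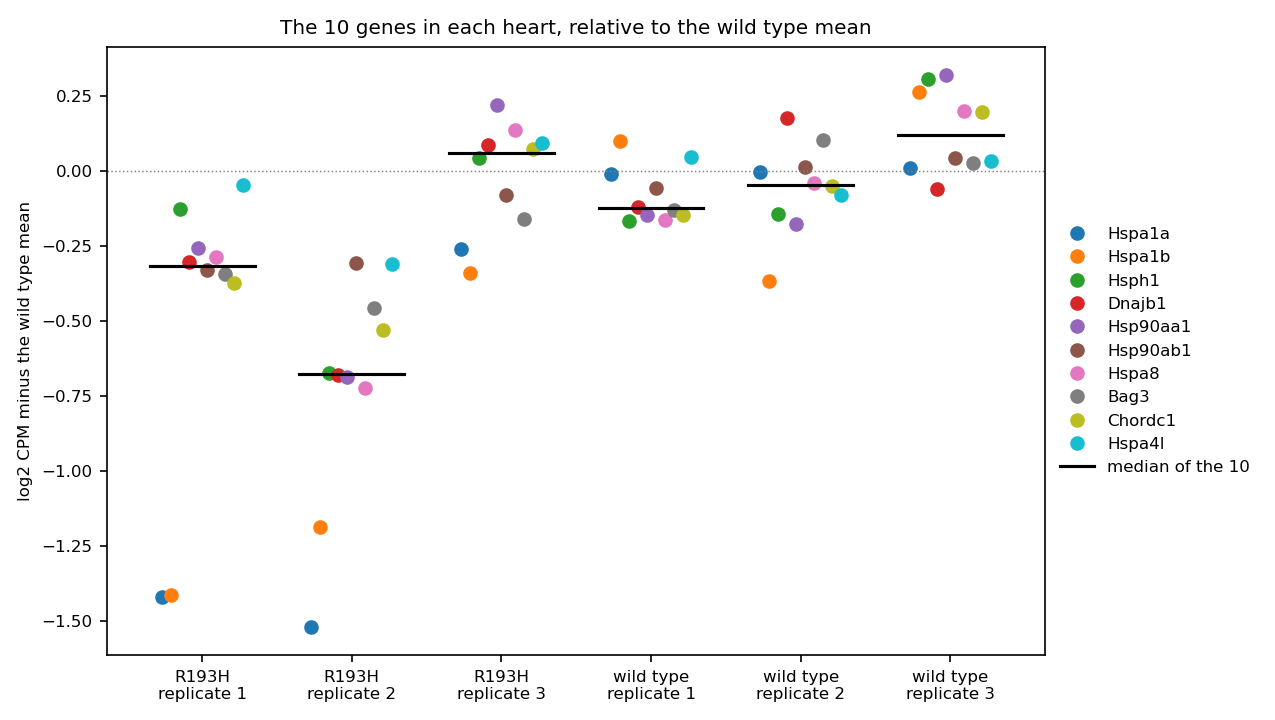
Log2 CPM minus the wild type mean for the 10 genes (colours) in each heart (x axis), with a black bar at the median of the 10. The median is -0.68 in R193H replicate 2 and 0.060 in R193H replicate 3, and Hspa1a and Hspa1b lie well below the other genes in R193H replicates 1 and 2.

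**Figure D4:**
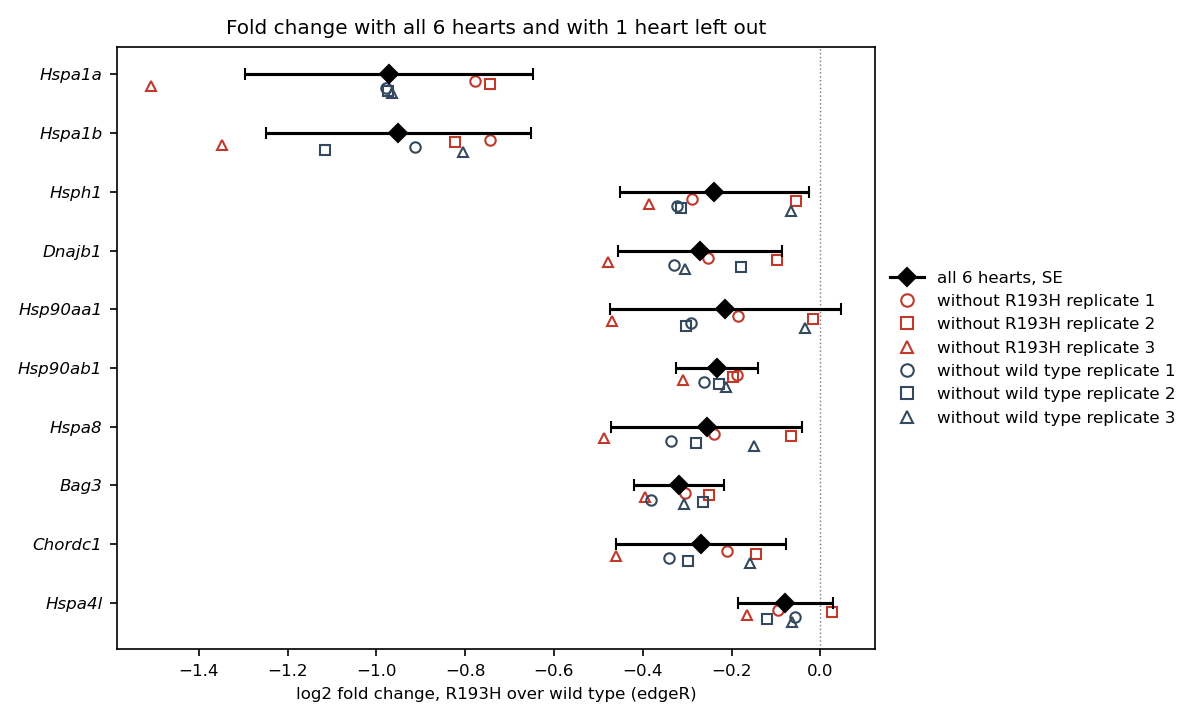
Log2 fold change of R193H over wild type per gene from edgeR (diamonds, with SE) and with 1 heart left out (open symbols, by the heart left out). All 10 lie below 0 with all 6 hearts, Hsp90aa1, Hsph1 and Hspa8 lie at -0.018, -0.056 and -0.066 without R193H replicate 2, and Hspa4l turns to 0.026 without that heart (and to 0.041, not plotted, under library totals).

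How closely the members followed each other was measured by the correlation of log2 CPM over the 6 hearts, for 45 pairs of genes. For Hspa1a and Hsp90ab1 the hearts fell into separate clumps (R193H replicates 1 and 2 low, the other 4 high, with a gap of 75.6% and 61.0% of the range), so no single r is given for the 17 pairs that include them. Those pairs enter only the counts and medians over all 45 pairs. Hspa1b came close to this, with a gap of 49.0%. In the other 28 pairs Pearson's r was positive in 28 and ranged from 0.56 to 0.97, with a median of 0.82. The median of Spearman's rho over these 28 pairs was 0.71. Over all 45 pairs none passed a two-sided exact permutation test of the 720 pairings after Benjamini-Hochberg adjustment, with Pearson's r or Spearman's rho. The smallest exact permutation p that the pairings allow is 0.00278, and 1 pair at that floor would not pass alone after adjustment over 45. The adjusted test thus had little room to pass, and no conclusion is drawn from it. In the same test 16 pairs had an unadjusted p under 0.05 with Pearson's r and 7 with Spearman's rho. The share over pairs of all genes tested was not computed, so these counts and the positive signs are not read as particular to the members.
Among the 28 pairs, the closest were Hsp90aa1 with Hspa8 and Hspa8 with Chordc1. For Hspa8 and Chordc1, r was 0.97 and rho 1.0, with an exact permutation p of 0.00278 for either, the smallest that 720 pairings allow (adjusted p = 0.0833 for r and 0.125 for rho), and r was 0.97 without the 2 hearts farthest from the median of Hspa8. For Hsp90aa1 and Hspa8, r was 0.97 and rho 0.94 (exact permutation p = 0.00556 and 0.0167, adjusted p = 0.0833 and 0.150), and r was 0.90 without the 2 farthest hearts. Hsph1 and Hsp90aa1 followed, with r of 0.96 and rho of 0.77 (exact permutation p = 0.0167 and 0.103, adjusted p = 0.0875 and 0.201), and r of 0.93 without the 2 farthest hearts. These 4 genes, Hspa8, Hsp90aa1, Hsph1 and Chordc1, picked for their high r, had r from 0.90 to 0.97 in their 6 pairs. Without the 2 farthest hearts, r in the 6 pairs ranged from 0.62 (Hsph1 with Chordc1) to 0.97, and it was 0.78 for Hsph1 with Hspa8.
Bag3 and Hspa4l were the loosest pair, with r of 0.56 and rho of 0.20 (exact permutation p = 0.281 and 0.714, adjusted p equal to these). Hspa1b and Dnajb1 had r of 0.64 and rho of 0.43 (exact permutation p = 0.189 and 0.419, adjusted p = 0.212 and 0.484), and r was -0.89 without R193H replicates 1 and 2, so that relation rests on those 2 hearts. Without the 2 hearts farthest from the median of the first gene of each pair, r stayed positive in 25 of the 28 pairs and ranged from -0.89 to 0.97, with a median of 0.58. In deviations from the mean of each heart's own genotype, the 28 pairs had r from 0.39 to 0.97, with a median of 0.78. Points of 1 gene and another share a library and its scaling factor, and the median r over all 45 pairs was 0.82 with TMM scaling, 0.67 under library totals and 0.65 without R193H replicate 2.

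**Figure D5:**
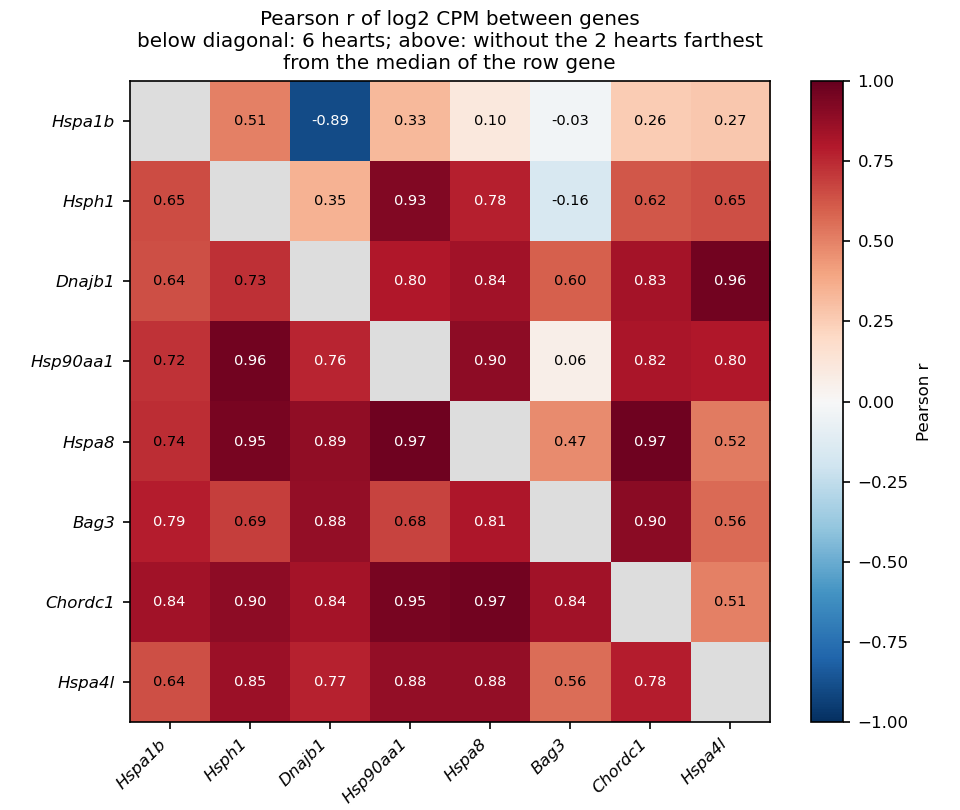
Pearson's r of log2 CPM between 8 of the genes, over 6 hearts below the diagonal and without the 2 hearts farthest from the median of the row gene above it (colour scale from -1 to 1). The block of Hsph1, Hsp90aa1, Hspa8 and Chordc1 has r from 0.90 to 0.97 over 6 hearts and from 0.62 to 0.97 above the diagonal. The negative values above the diagonal are those of Hspa1b with Dnajb1 and Bag3 and of Hsph1 with Bag3.

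The mean profile of the 10 genes (the mean of their standardized log2 CPM) was matched against the other 14360 genes tested, as a description over 6 hearts that share libraries and scaling. Pearson's r was 0.9 or more for 2.31% of them and -0.9 or less for 1.41%. Among the genes most like it were Ccdc117 (r = 0.993), Dnaja4, an Hsp40 co-chaperone (0.993), Lrrc2 (0.991) and Naa20, a subunit of a protein acetyltransferase (0.991). Dnaja4 measured 25.1, 22.7 and 31.7 CPM in R193H hearts, against 29.7, 31.8 and 33.4 CPM in wild type hearts, with R193H replicate 2 lowest as in the members. The genes most opposite were Pknox2, a homeobox factor (r = -0.989), Asap1 (-0.987), Csf1, a growth factor of macrophages (-0.987), Cygb, a globin (-0.986), and Adcyap1r1, a neuropeptide receptor (-0.984). Csf1 measured 66.5, 85.1 and 51.0 CPM in R193H hearts, against 59.2, 53.7 and 47.2 CPM in wild type hearts, so R193H replicate 2 was the highest there. Each member had r of 0.80 (Hspa4l) to 0.97 (Chordc1) with the mean of the other 9.

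The heat shock factors themselves followed the mean profile less closely, with r over 6 hearts of 0.38 for Hsf1, 0.52 for Hsf2 and -0.05 for Hsf4, as a description. Hsf1, the main activator of these genes, had 34.9, 32.1 and 32.1 CPM in R193H hearts, against 34.6, 36.3 and 34.6 CPM in wild type hearts (log2 fold change -0.091, SE 0.080, and 0.036 under library totals). R193H replicates 2 and 3 lay at the same level, below all wild type hearts, and R193H replicate 1 lay within the wild type range. Hsf2, a partner of Hsf1, stood at 0.023 (SE 0.16) and Hsf4, which acts mainly in the lens, at 0.11 (SE 0.20). None passed the threshold (edgeR adjusted p from 0.906 to 0.991). Messenger RNA does not show the activity of Hsf1, which is set by its release and trimer formation. The cold-inducible RNA-binding protein Cirbp had 26.3, 33.1 and 31.7 CPM in R193H hearts, against 28.0, 29.8 and 21.8 CPM in wild type hearts (log2 fold change 0.19, SE 0.13), and Rbm3, which is likewise induced by cold, stood at -0.12 (SE 0.11, and 0.0074 under library totals); both groups overlapped.

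Other genes of the chaperone network were read in lists. None of the 95 genes tested over 8 lists passed the threshold in edgeR, DESeq2 or limma-voom. In edgeR 3 of the 95 had an unadjusted p under 0.05 (Flnc, Myc and Ier2), against 5.73% of all genes tested. That count is not read as particular to the lists. Scaling by library totals turned many of the small differences, and its counts are given beside those of TMM. Under library totals the median log2 fold change over all genes tested was itself 0.13, against -0.00036 with TMM. A rise under library totals is therefore not particular to these lists. Among 22 other heat shock factor targets, 16 had a lower mean in R193H hearts (5 under library totals), with a median log2 fold change of -0.073 (0.051 under library totals). The Hsp40 genes Dnajb5 and Dnajb4 stood at -0.26 (SE 0.17) and -0.17 (SE 0.12), the Hsp70-Hsp90 adaptor Stip1 at -0.12 (SE 0.085) and Ahsa2, of the family of Hsp90 activators, at -0.19 (SE 0.14). Of these 4, Stip1 turned to 0.0055 under library totals.
Of 17 Hsp70 co-chaperones, 15 had a lower mean (7 under library totals; median -0.11 and 0.018). Dnaja4 and Dnaja1, both of the Hsp40 class, stood at -0.25 (SE 0.12) and -0.38 (SE 0.28) and kept their sign under library totals. Of 15 Hsp90 co-chaperones 8 had a lower mean (0 under library totals), with a median of -0.011 and a mean of 0.0017, which differ in sign. Sugt1, an adaptor of Hsp90, stood at -0.12 (SE 0.082, and 0.0076 under library totals), Tsc1 at -0.095 (SE 0.092, and 0.028) and Ttc4 at 0.091 (SE 0.093). The 8 subunits of the chaperonin TRiC, which folds actin and tubulin, had 7 lower means (1 under library totals; median -0.042 and 0.084), with Cct4 at -0.17 (SE 0.10), Tcp1 at -0.11 (SE 0.079, and 0.017 under library totals), Cct2 at -0.052 and Cct3 at -0.049 (0.073 and 0.076 under library totals).
Other members of the Hsp70 and Hsp90 families had 4 of 10 lower means (2 under library totals), with a median of 0.065 and a mean of -0.0066. Hspa1l and Hspa2, which are known mainly from the testis, stood at -0.47 (SE 0.23) and -0.31 (SE 0.17), the mitochondrial Hsp90 Trap1 at -0.11 (SE 0.080, and 0.018 under library totals) and Hspa12a at 0.45 (SE 0.34). Bag3's partners in chaperone-assisted autophagy had 8 of 11 lower means (3 under library totals; median -0.047 and 0.081). Filamin C (Flnc), the actin cross-linker that Bag3 clears from the Z-disc, measured 261 ± 16.6 CPM in R193H hearts and 301 ± 21.6 CPM in wild type hearts (SD, n = 3 each; log2 fold change -0.20, SE 0.089, edgeR adjusted p = 0.851). Its groups did not overlap, with R193H lower, as in 5.8% of all genes tested. Synpo2 stood at -0.16 (SE 0.095), Synpo at -0.15 (SE 0.13) and Wipi1 at -0.12 (SE 0.087, and 0.0017 under library totals).

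Measures of cell makeup and handling were read beside the members. The summed level of 8 cardiomyocyte markers was 39112 to 42453 CPM in R193H hearts and 43000 to 45583 CPM in wild type hearts, lowest in R193H replicate 2. Fibroblast markers (7 genes) summed to 1337, 2100 and 1404 CPM in R193H replicates 1, 2 and 3, against 1257 to 1493 CPM in wild type hearts, and 7 macrophage markers to 265, 259 and 192 CPM in R193H hearts, against 153 to 180 CPM in wild type hearts. Endothelial markers (7 genes) ranged from 1175 to 1319 CPM in R193H hearts and from 1074 to 1321 CPM in wild type hearts, and pericyte and smooth muscle markers (6 genes) from 686 to 905 CPM in R193H hearts and from 719 to 903 CPM in wild type hearts. No marker read was at 0 in all hearts. The part of these cells in the lower chaperone values was not tested.
Lymphocyte markers (6 genes) summed to 3.63 to 5.94 CPM in R193H hearts and 2.36 to 10.8 CPM in wild type hearts. Red cell markers (5 genes) summed to 476 to 629 CPM in R193H hearts and 257 to 3091 CPM in wild type hearts. Atrial markers (5 genes) summed to 132 to 242 CPM in R193H hearts and 80.6 to 678 CPM in wild type hearts. Adipocyte markers (5 genes) summed to 2.65 to 19.6 CPM in R193H hearts and 4.20 to 23.7 CPM in wild type hearts. Epicardial markers (4 genes) summed to 11.9 to 53.5 CPM in R193H hearts, with the highest in R193H replicate 2, and 12.4 to 22.6 CPM in wild type hearts.
Immediate early genes, which answer within minutes to handling or signals, had 12 of 15 higher means in R193H hearts (12 under library totals), with a median log2 fold change of 0.37. Of the 15, 2 had an unadjusted p under 0.05 in edgeR (5.73% of all genes tested had one). Myc stood at 0.58 (SE 0.18), Ier2 at 0.65 (SE 0.27), Btg2 at 0.24 (SE 0.13) and Atf3, a stress-induced repressor, at -1.03 (SE 0.46). Over the list, R193H replicate 2 stood at a median of 0.49 relative to the wild type mean, against 0.015 and 0.044 in R193H replicates 1 and 3 and -0.26 to 0.30 in wild type hearts. Their part in the low chaperone values of R193H replicate 2 was not tested.
Of the 12 clock genes that passed the filter, 9 averaged lower in R193H hearts (3 under library totals), with a median log2 fold change of -0.064 (0.065 under library totals). Tef stood at -0.43 (SE 0.20), Per2 at -0.46 (SE 0.20), Nr1d1 at 0.41 (SE 0.24) and Cry2 at -0.12 (SE 0.079, and 0.010 under library totals).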

How the data were processed

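Total RNA of 6 mouse hearts was sequenced on an Illumina platform, and the submitters' processing notes name HISAT2 2.0.4 and GRCm38. The authors deposited raw read counts per gene symbol. For the counting program, reads with several matches and strand, nothing is stated in the sources used here. For replication, the design text calls the hearts biological repeats.
Counts were tested with edgeR 4.0.16 (R 4.3.3; filterByExpr, TMM, robust quasi-likelihood, Benjamini-Hochberg over 14370 genes, threshold 0.05), with DESeq2 1.42.0 and limma-voom (limma 3.58.1) as alternatives. SE is the absolute log2 fold change over the square root of F. Log2 CPM used a prior count of 2, and correlations used scipy 1.17.1. On 5 simulated sets of 14370 genes with this design, 200 genes were changed in each set. There edgeR recovered 27.2% of 1.5-fold (91 of 335), 69.6% of 2-fold (233 of 335) and 89.1% of 4-fold changes (294 of 330). The 73 false calls over the 5 sets were a larger share of the calls than the threshold of 0.05 aims at.
The members and lists were chosen with earlier results of these data known. The text names the 10 genes, Tnni3, Hsf1, Hsf2, Hsf4, Cirbp, Rbm3, up to 4 genes of each list by smallest p, and the 5 genes at each end of likeness to the mean profile, of which 1 is not reported here. The rule that withholds r for hearts in separate clumps (a gap over 50% of the range with at least 2 hearts on each side) was chosen after seeing the data. Alternatives were other scalings, filters, prior counts and tools, and leaving out each heart.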

Additional observations from a re-analysis of the deposited data

How the results depend on the processing

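Of the 148 member values under 15 alternative settings, 145 kept their direction and their side of the threshold. Hspa4l reversed, to 0.041 under library totals and 0.026 without R193H replicate 2, and Hspa1a passed the threshold without R193H replicate 3 (-1.51). With 1 heart left out Hspa4l ranged from -0.17 to 0.026. The cause was not tested. The median log2 fold change of the members ranged from -0.46 to -0.12 with 1 heart left out, and was -0.15 under library totals. Over all genes, 1 passed the threshold, TrnL1, which is mitochondrially encoded, so that 0 passed with such genes left out (806 at an unadjusted p under 0.05 in edgeR). The count was 38 with no filter, 42 in DESeq2, and 3 to 21 with 1 heart left out (3 without R193H replicate 1, 6 without R193H replicate 2, 21 without R193H replicate 3, 6 without wild type replicate 1, 7 without wild type replicate 2 and 4 without wild type replicate 3). The median r over pairs was 0.67 under library totals and 0.65 to 0.89 with 1 heart left out. No paired analysis was possible because the labels give no replicate numbers that the genotypes share. The lowest members, Hspa1a and Hspa1b, had 42 to 151 counts a heart, which limits their precision.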

Other observations

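Some genes outside the chaperones also set R193H replicate 2 apart. They were chosen after their values were seen. Fos, an immediate early transcription factor, had 3.37, 25.9 and 2.51 CPM in R193H replicates 1, 2 and 3, against 2.77, 3.33 and 5.56 CPM in wild type replicates 1, 2 and 3. Egr1 had 15.3, 85.1 and 17.1 CPM in R193H hearts, against 12.7, 16.2 and 22.0 CPM in wild type hearts. Junb had 17.4, 37.5 and 15.3 CPM in R193H hearts, against 15.0, 12.8 and 16.8 CPM in wild type hearts. In all 3 of these genes R193H replicate 2 was the highest heart. Nr4a1, likewise an immediate early gene, was lowest there, with 40.3, 14.6 and 64.0 CPM in R193H hearts, against 40.9, 115.7 and 100.3 CPM in wild type hearts.

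Clock outputs differed among hearts as well. Dbp, a direct target of the clock, had 159.8, 201 and 117 CPM in R193H hearts, against 134, 153 and 104 CPM in wild type hearts, and Nr1d1, a repressor in the clock loop, had 88.8, 143 and 90.5 CPM in R193H hearts, against 75.6, 100.3 and 67.0 CPM in wild type hearts. Both were highest in R193H replicate 2. Per2, a repressor of the clock, was lowest there, with 48.7, 28.2 and 44.7 CPM in R193H hearts, against 50.1, 54.6 and 62.3 CPM in wild type hearts. Nr1d2, another clock gene, was lowest there as well, with 162.6, 155.5 and 166.7 CPM in R193H hearts, against 165.6, 167.9 and 169.4 CPM in wild type hearts. So was Per1, at 74.8 CPM. These genes were picked from the 12 clock genes tested, whose median there was -0.14 relative to the wild type mean. Of all genes tested, 23.9% were lowest in R193H replicate 2, and the share highest there was not computed. The time of day at which the hearts were taken is not given in the sources used here, and its part in these values was not tested.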
